A study of Homo sapiens with 6 samples.

Results

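The 10 genes followed here mark the retinal pigment epithelium (RPE) and were picked by their gene symbols from RNA-seq of a human RPE cell line. They were the transcription factors MITF and OTX2, the retinoid-handling genes RPE65, RLBP1 and RDH11, the chloride channel gene BEST1, the pigment genes PMEL and TYRP1, the phagocytosis receptor gene MERTK and the keratin gene KRT18. Of these 10 genes, 9 were among the 30618 genes listed in the count table, and 8 were among the 16749 genes with enough counts to be tested. The 2 groups of 3 libraries each came from ARPE-19 cells, an established human RPE line, kept in 50 mM glucose. NC cells received a negative control siRNA, and siEIF1 cells received an siRNA against EIF1, a translation initiation factor that helps the ribosome select the start codon. High glucose was shared by both groups, no library of another glucose level entered the comparison, and the knockdown was a transient siRNA transfection in a single cell line.

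The RPE is a pigmented monolayer beneath the photoreceptors of the eye. It recycles the visual chromophore (the visual cycle), engulfs shed photoreceptor tips, makes melanin in melanosomes and moves ions and nutrients between the blood and the retina. MITF and OTX2 direct much of this program during eye development, and the other members act in it: RPE65 is the isomerase of the visual cycle, RLBP1 encodes the retinaldehyde-binding protein CRALBP, and PMEL and TYRP1 build the melanosome and its pigment.

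The 6 libraries held between 26499929 and 31431479 counts, and replicates within a group were further apart than counting noise alone would put them. EIF1 (ENSG00000173812.11) was at 294.35, 281.08 and 281.28 FPKM in NC replicates 1 to 3 and at 24.28, 22.68 and 23.5 FPKM in siEIF1 replicates 1 to 3. The siEIF1 mean was 8.22% of the NC mean, so the targeted gene was low in every library labelled siEIF1. FPKM is the number of fragments per kilobase of gene length, scaled to the number of mapped fragments, and it was used to compare levels between genes. Differences between groups are log2 fold changes of siEIF1 minus NC, from edgeR's quasi-likelihood test on the counts with p-values adjusted by the Benjamini-Hochberg method over all tested genes.

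The 10 members spanned a wide range of expression. KRT18 had the highest mean level over the 6 libraries, at 354 FPKM, and ranked 81 from the top among the 30275 genes with FPKM values. BEST1 followed at 59.0 FPKM, a level left uncertain by its overlap with FTH1, OTX2 at 18.2, RDH11 at 6.86 and MITF at 5.72. These 5 genes exceeded 1 FPKM in every library, a level that 35.8% of the 30275 genes with FPKM values reached. RLBP1 at 0.458 FPKM, MERTK at 0.333 and PMEL at 0.268 lay below 1 FPKM in every library, and TYRP1 at 0.055 FPKM was the lowest of the listed members. RPE65 had no row in the tables used here, in which the lowest total of a listed gene over the 6 libraries was 1 count, and no value is given for it. In this order of levels, the ranges over libraries overlapped between RLBP1 and MERTK and between MERTK and PMEL, and the other neighbours did not overlap. By their levels, the line labelled as RPE held transcripts of the 2 transcription factors, RDH11 and KRT18, and counts for BEST1 that may include reads of FTH1. RLBP1, MERTK and the pigment genes PMEL and TYRP1 were low, and the defining visual cycle gene RPE65 was without a row.

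**Figure D1:**
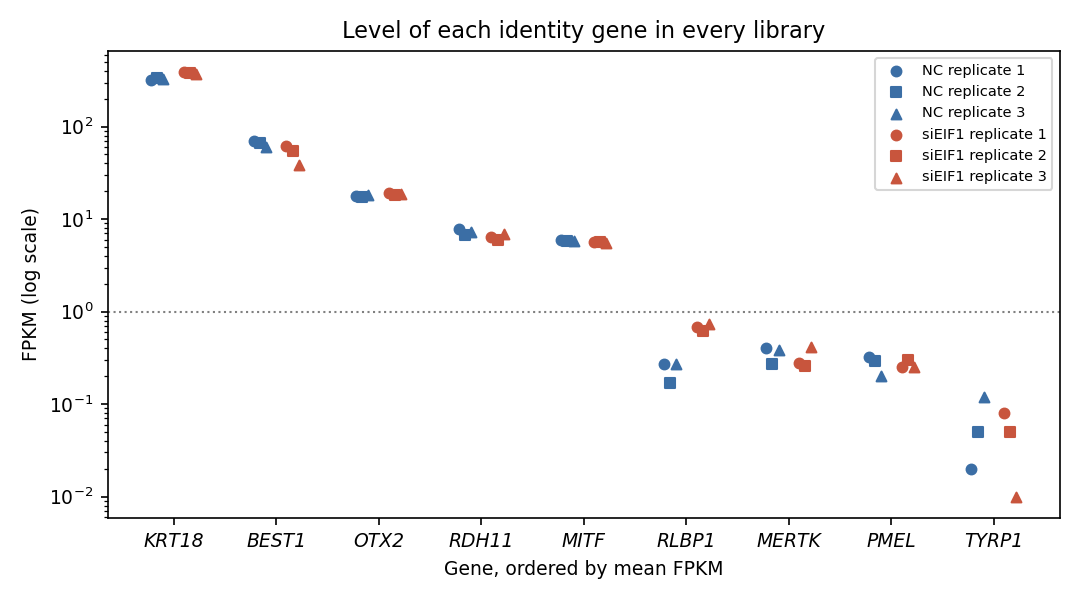
FPKM (log scale) of the 9 listed members in each of the 3 NC libraries (blue) and 3 siEIF1 libraries (red), with a dotted line at 1 FPKM and genes ordered by their mean. KRT18, BEST1, OTX2, RDH11 and MITF lie above the line in every library, and RLBP1, MERTK, PMEL and TYRP1 lie below it in every library.

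Of the 8 tested members, RLBP1 and KRT18 rose in siEIF1 cells, and 0 of the 8 fell. The other 6 did not pass the test, of which RDH11 and BEST1 were lower at an unadjusted p under 0.05 in edgeR. DESeq2 also called 0 members lower. The share that passed, 2 of 8, stood beside 20.6% of all tested genes past the same adjusted p of 0.05 in either direction, with 10.2% higher and 10.4% lower, so the count of members was near the background. The groups did not overlap in CPM, the counts scaled to library size, for 3 of the 8 members, RLBP1, KRT18 and OTX2, against 37.1% of all tested genes. The median log2 fold change was -0.02 over the tested members and 0.0034 over all tested genes. In each of the 8 tested members all 6 libraries lay above the filter level of 0.345 CPM, so no member passed the filter through one group alone. In bulk RNA, fewer cells expressing a gene and less RNA per cell cannot be told apart.

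**Figure D2:**
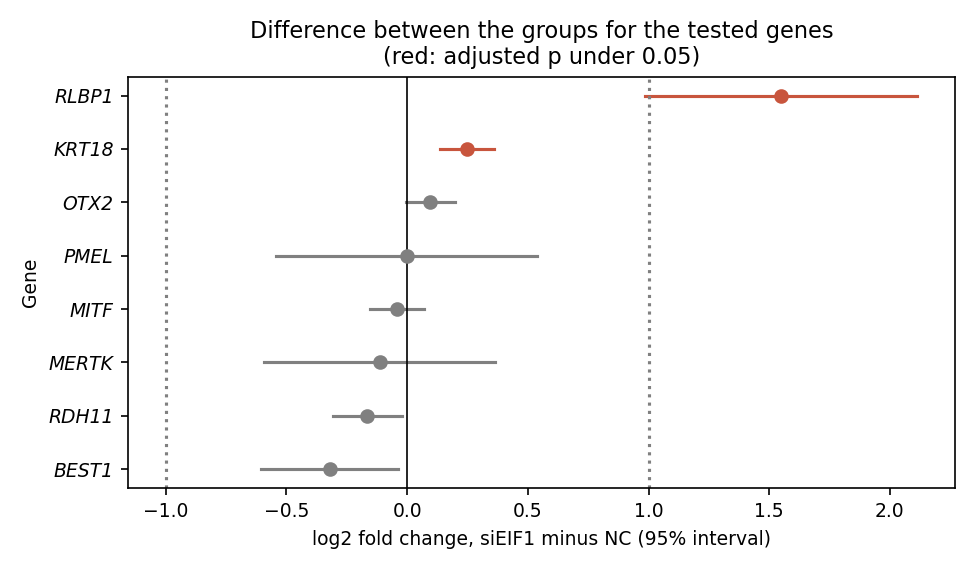
Log2 fold change (siEIF1 minus NC) of the 8 tested members with its 95% interval, in red where the adjusted p was under 0.05, with dotted lines at a fold of 2 in each direction. RLBP1, at 1.55, is the one member past the line of a doubling, and its interval reaches from 0.98 to 2.11. KRT18 lies at 0.25 with an interval above 0.

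RLBP1 (ENSG00000140522.12) had the largest difference of the members. On GRCh38 it lies on the reverse strand of chromosome 15, from 89209869 to 89221614. Its counts were 16, 11 and 17 in NC replicates 1 to 3 and 49, 42 and 49 in siEIF1 replicates 1 to 3. In FPKM it stood at 0.27, 0.17 and 0.27 in the NC libraries and at 0.69, 0.62 and 0.73 in the siEIF1 libraries. Every siEIF1 library was above every NC library, and the spread within each group was small beside the gap between the groups. The mean rose from 0.237 ± 0.0577 FPKM (SD, n = 3) to 0.68 ± 0.0557 FPKM (SD, n = 3). The log2 fold change was 1.55 (SE 0.26, adjusted p = 0.00102 from edgeR), a 2.92-fold higher level with a 95% interval from 1.98 to 4.33. By the size of this rise it ranked 12 from the top of the 16749 tested genes, and it was the 1 member of 8 past both an adjusted p of 0.05 and a fold of 2. Over all tested genes, 1.71% passed both limits in either direction and 0.4% passed them upward. The rise was from a low level to another low level, with at most 49 counts in a library. The mean FPKM of RLBP1 ranked above 54.2% of the 30275 genes with FPKM values.

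RLBP1 is also expressed by Müller glia of the retina, so the markers of that cell type were read beside it. Of 7 Müller glia genes, 5 were listed and 3 were tested, of which GLUL (log2 fold change 0.18) and VIM (0.30) rose and DKK3 (-0.16) fell. The summed level of the list ranged from 886 to 910 FPKM in NC and from 1048 to 1116 FPKM in siEIF1 libraries and was mostly VIM, an intermediate filament gene of many cell types. SLC1A3, a glutamate transporter of glia, held 2 counts in NC replicate 1 and 0 counts in the other 5 libraries. GFAP, the astrocyte filament gene, held 9, 10 and 18 counts in the NC libraries and 7, 5 and 6 counts in the siEIF1 libraries. The part of these markers in the RLBP1 difference was not tested.

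The RefSeq promoter table on GRCh38.p14 held 10 promoters of 7 members, each from 250 bases before to 50 bases after a transcription start. They were searched on both strands for the motif CATGTG, the core of the M-box that MITF binds in pigment genes, and for TAATCC, the motif bound by OTX factors. CATGTG was in 4 of the 10 promoters and in 11.1% of all 35116 promoters of that length. TAATCC was in 3 of the 10 and in 6.36% of all. CACGTG, an E-box form that MITF also binds, was in 0 of the 10 and in 7.26% of all. The 4 stretches below are shown because RLBP1, the member with the largest difference, and TYRP1, the listed member nearest to 0, both held each of the first 2 motifs. Capitals mark the motif or its reverse complement, and each name gives the position of the motif's first base before the start.
RLBP1, OTX motif at -61, chr15:89221623-89221652, reverse strand: cttatgacacacTAATCCcaacctgctgac
RLBP1, M-box core at -244, chr15:89221800-89221829, reverse strand: ggcttcCACATGgccgagcaggaactccag
TYRP1, OTX motif at -94, chr9:12693279-12693308, forward strand: ctgaagtgaaaaGGATTAgtaaagggtgga
TYRP1, M-box core at -144, chr9:12693229-12693258, forward strand: ttggaagggaatCATGTGctgatcaagtcc
The TYRP1 promoter held another OTX motif at -34 and another M-box core at -11, which are not shown. RDH11 also held both motifs, the M-box core at -250 and the OTX motif at -149, and OTX2 held the M-box core at -239. A match of 6 letters only describes the sequence. Of the genes with both motifs, RLBP1 rose, RDH11 did not pass the test, and TYRP1 had too few counts to test. The part of these motifs in the differences was not tested.

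KRT18 (ENSG00000111057.11) encodes keratin 18, the filament partner of keratin 8 in simple epithelia, and is a forward-strand gene of chromosome 12 (52948871 to 52952906). Its counts were 31874, 35863 and 34121 in NC replicates 1 to 3 and 45959, 43340 and 41296 in siEIF1 replicates 1 to 3. In FPKM it stood at 319.5, 333.34 and 326.56 in the NC libraries and at 390.08, 383.53 and 372.27 in the siEIF1 libraries. All siEIF1 libraries were above all NC libraries, with a gap between 333.34 and 372.27 FPKM. This was a log2 fold change of 0.25 (SE 0.052, adjusted p = 0.00441 from edgeR), a 1.19-fold higher level with a 95% interval from 1.1 to 1.28. The difference was small in size, and KRT18 did not pass edgeR's glmTreat test against a fold of 1.2, but it was large beside the spread within groups, with means of 326 ± 6.92 and 382 ± 9.01 FPKM (SD, n = 3 each).

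KRT18 shares 525 of its 3069 exonic bases, 17.1%, with KRT8 on the opposite strand. The counting program and its strand setting are not given in the sources used here, so how reads in the shared bases were assigned is not known. KRT8 held 23820, 28090 and 27159 counts in the NC libraries and 34778, 34374 and 31618 counts in the siEIF1 libraries, with a log2 fold change of 0.24 (SE 0.057, adjusted p = 0.00948 from edgeR). Both partner keratins rose by a similar amount. KRT18 counts per 100 KRT8 counts were 129 ± 4.26 in NC and 130 ± 3.15 in siEIF1 (SD, n = 3 each), and this ratio gave p = 0.9 in a two-sided exact permutation test, in which 3 libraries against 3 cannot go below 0.1. The 27 listed KRT18 pseudogenes summed to between 14 and 24 counts per library, at most 0.0615% of the KRT18 counts.

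**Figure D3:**
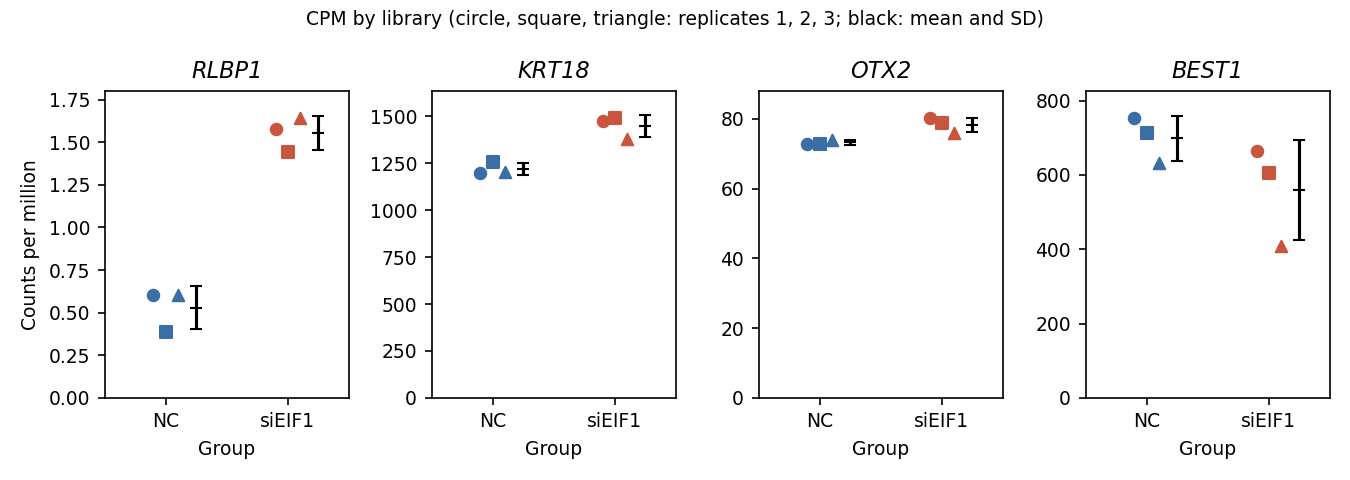
CPM of RLBP1, KRT18, OTX2 and BEST1 in each library (circle, square and triangle for replicates 1, 2 and 3), with the mean and SD of each group in black and every axis starting at 0. The groups are apart for RLBP1, KRT18 and OTX2, and for BEST1 siEIF1 replicate 3, at 408 CPM, lies below the other 5 libraries.

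OTX2 (ENSG00000165588.18), a homeodomain factor needed for RPE specification, lies on chromosome 14. Its counts were 1938, 2076 and 2092 in the NC libraries and 2491, 2292 and 2272 in the siEIF1 libraries. In FPKM the NC libraries were at 17.62, 17.51 and 18.16 and the siEIF1 libraries at 19.18, 18.4 and 18.58. Each siEIF1 library was above each NC library, by a narrow margin. The log2 fold change of 0.10 (SE 0.047, 95% interval -0.01 to 0.20) did not pass the test, with an adjusted p of 0.176 from edgeR. OTX2-AS1, an antisense gene within which OTX2 lies in part, shared 0 exonic bases with it and averaged 13.8 counts.

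MITF (ENSG00000187098.17), the basic helix-loop-helix factor that drives pigment genes, lies on chromosome 3. It held 1369, 1443 and 1429 counts in the NC libraries and 1561, 1483 and 1410 counts in the siEIF1 libraries. Its FPKM was 5.89, 5.76 and 5.87 in NC and 5.69, 5.63 and 5.46 in siEIF1. The groups did not overlap in FPKM but did overlap in CPM, where the NC values ran from 50.5 to 51.5 and the siEIF1 values from 47.2 to 50.9. MITF did not pass the test, with a log2 fold change of -0.04 (SE 0.052, 95% interval -0.15 to 0.07, adjusted p = 0.638 from edgeR).

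RDH11 (ENSG00000072042.13), a retinol dehydrogenase expressed in many tissues as well as the RPE, lies on chromosome 14. Its counts were 1412, 1286 and 1371 in NC and 1341, 1212 and 1374 in siEIF1. Its FPKM was 7.9, 6.67 and 7.32 in NC and 6.35, 5.99 and 6.91 in siEIF1, and siEIF1 replicate 3 lay above NC replicate 2, so the groups overlapped. RDH11 did not pass the test, at a log2 fold change of -0.17 (SE 0.066, 95% interval -0.31 to -0.02, adjusted p = 0.0993 from edgeR). Leaving out NC replicate 2 moved the adjusted p to 0.0491 (log2 fold change -0.23), and leaving out siEIF1 replicate 3 moved it to 0.0489 (-0.21). Without NC replicate 1 the log2 fold change was -0.10 (adjusted p = 0.346), and without siEIF1 replicate 2 it was -0.13 (adjusted p = 0.284), all from edgeR. RDH11 shares 346 of its 5498 exonic bases, 6.29%, with ENSG00000258466, a protein-coding gene on the same strand. No count is given here for that gene, and how reads in the shared bases were assigned is not known.

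BEST1 (ENSG00000167995.17) encodes bestrophin 1, the calcium-activated chloride channel of the basolateral RPE membrane, and is a forward-strand gene of chromosome 11 (61950063 to 61965515). Its counts were 19993, 20278 and 17906 in the NC libraries and 20700, 17608 and 12180 in the siEIF1 libraries. In FPKM the NC libraries were at 70.79, 66.58 and 60.54 and the siEIF1 libraries at 62.06, 55.04 and 38.79. The groups overlapped through siEIF1 replicate 1, and siEIF1 replicate 3 was the lowest library. The log2 fold change of -0.32 (SE 0.13, 95% interval -0.60 to -0.04) did not pass the test, with an adjusted p of 0.106 from edgeR. The value rested on single libraries: it was -0.14 (adjusted p = 0.168) without siEIF1 replicate 3 and -0.47 (adjusted p = 0.0119) without siEIF1 replicate 1.

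The last exons of BEST1 meet those of FTH1, the ferritin heavy chain gene on the opposite strand, and the 2 genes share 1267 of the 8688 exonic bases of BEST1, 14.6%. FTH1 was far more abundant, with between 131651 and 144563 counts per library, and fell with a log2 fold change of -0.18 (SE 0.053, adjusted p = 0.0249 from edgeR). BEST1 counts per 100 FTH1 counts were 13.9, 14.3 and 12.4 in the NC libraries and 14.3, 13.4 and 9.14 in the siEIF1 libraries. All libraries but siEIF1 replicate 3 lay between 12.4 and 14.3, and that library lay below them. The ratio gave p = 0.7 in a two-sided exact permutation test. The share of FTH1 reads in the BEST1 counts was not tested, and the level of BEST1 is uncertain to that extent.

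**Figure D4:**
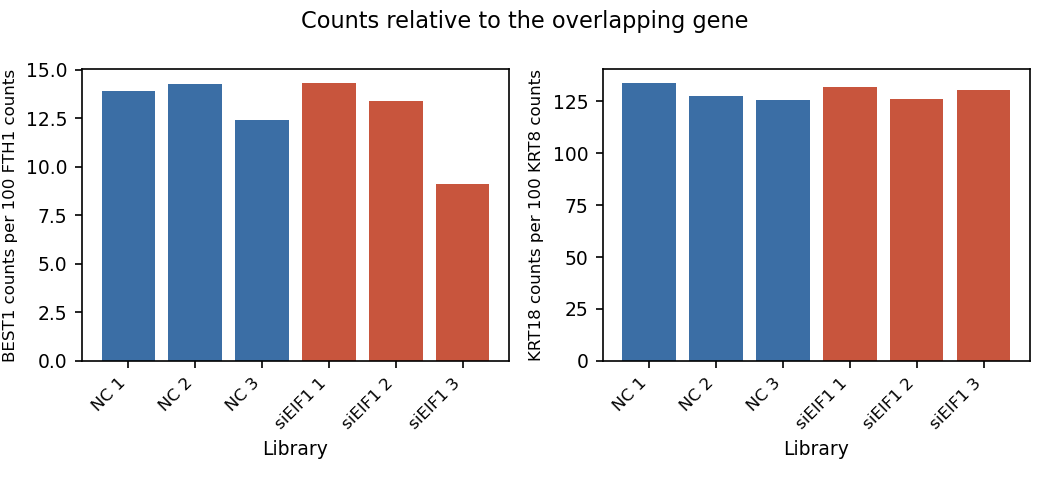
Left, BEST1 counts per 100 FTH1 counts, and right, KRT18 counts per 100 KRT8 counts, as bars from 0 for each NC (blue) and siEIF1 (red) library. The BEST1 ratio is 9.14 in siEIF1 replicate 3 and at least 12.4 in the other 5 libraries, and the KRT18 ratio lies between 126 and 134 in all 6.

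MERTK (ENSG00000153208.17), the receptor kinase by which the RPE engulfs outer segments, lies on chromosome 2. It held 59, 44 and 59 counts in NC and 50, 44 and 68 counts in siEIF1, with overlapping groups. Its FPKM ranged from 0.26 to 0.41 over the 6 libraries. MERTK did not pass the test (log2 fold change -0.11, SE 0.22, adjusted p = 0.772 from edgeR), and its 95% interval, from -0.59 to 0.36, was wide at this depth.

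PMEL (ENSG00000185664.15), which forms the amyloid fibrils of early melanosomes, lies on chromosome 12. It held 38, 37 and 25 counts in NC and 35, 40 and 33 counts in siEIF1, so the groups overlapped. Its log2 fold change was -0.0018 (SE 0.25, 95% interval -0.54 to 0.54, adjusted p = 0.998 from edgeR). PMEL shares 89 exonic bases with CDK2, a cell cycle kinase gene on the opposite strand, which fell from between 553 and 600 counts in NC to between 320 and 431 in siEIF1 libraries (log2 fold change -0.79, adjusted p = 7.08e-05 from edgeR). How reads in the shared bases were assigned is not known, so the level and difference of PMEL are uncertain to that extent.

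TYRP1 (ENSG00000107165.13), a melanosomal enzyme of melanin synthesis, lies on chromosome 9. It held 2, 6 and 15 counts in NC and 11, 7 and 1 counts in siEIF1, and it was not tested because 1 NC and 1 siEIF1 library lay above the filter level. The groups overlapped, and no difference was detectable at this depth. TYRP1 shares 102 exonic bases with LURAP1L-AS1 on the opposite strand, which averaged 115 counts. The assignment of reads in these shared bases is not known either, so the few TYRP1 counts are uncertain to that extent.

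The other genes of the same roles were then counted from lists that were written with earlier results of these data known. Apart from the members, the lists held 127 genes, of which 118 were listed and 97 tested. Of these 97, 28 were higher and 6 were lower in siEIF1 cells, 35.1% in all beside the 20.6% of all tested genes. Their median log2 fold change was 0.09, against 0.0034 over all tested genes. Because the lists were written with those results known, these values describe the listed genes only. Whether genes of these roles respond more than others was not tested. The counts for each list below include the members.

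**Figure D5:**
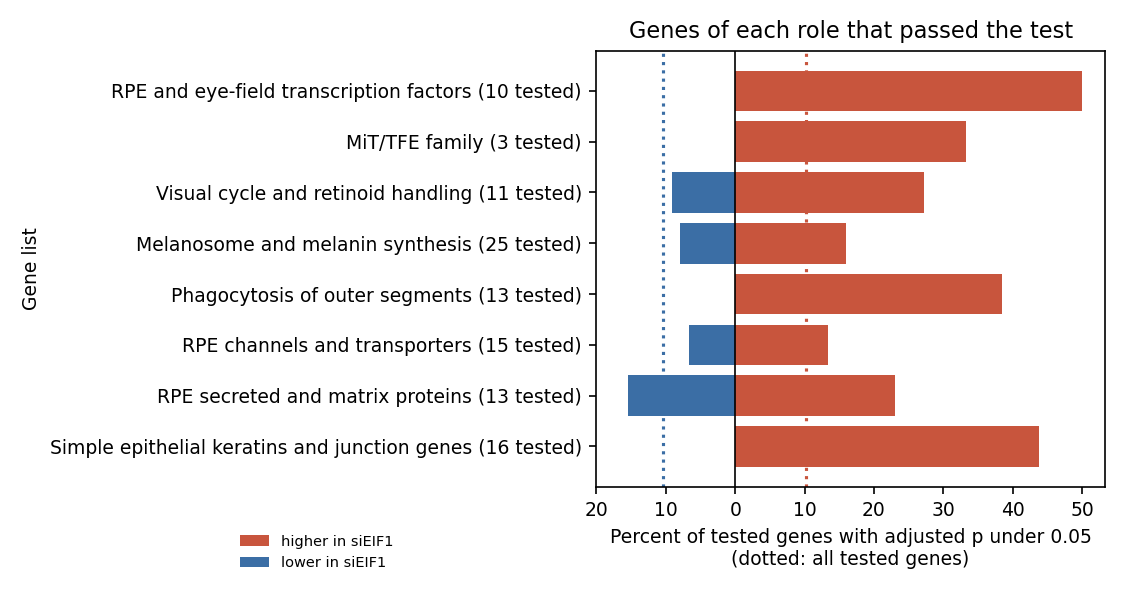
Percent of the tested genes of each role list, members included, that were higher (red, right) or lower (blue, left) in siEIF1 at an adjusted p under 0.05, with dotted lines at the shares over all tested genes (10.2% higher and 10.4% lower). The transcription factor, phagocytosis and keratin and junction lists have 5 of 10, 5 of 13 and 7 of 16 genes higher and no bar to the left.

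Among RPE and eye-field transcription factors, 5 of 10 tested genes rose and the other 5 did not pass the test. Of those 5, OTX1 had a log2 fold change of -0.64 (SE 0.225, adjusted p = 0.061 from edgeR). That was the largest difference in size among the tested genes of the list, and its groups did not overlap in CPM. OTX1 held 45, 84 and 65 counts in the NC libraries and 52, 41 and 41 counts in the siEIF1 libraries. SOX9, which acts with OTX2 on visual cycle genes, rose from 11.5 ± 0.141 to 15.1 ± 1.09 FPKM (SD, n = 3 each; log2 fold change 0.41). The nuclear receptors NR2F1 (0.34) and NR2F2 (0.15) and the eye-field homeobox genes PAX6 (0.19) and SIX3 (0.19) also rose by modest amounts. Without siEIF1 replicate 1, or without siEIF1 replicate 2, 3 genes of this list passed. Without NC replicate 1, 4 genes passed, 3 higher and 1 lower, and the lower gene was OTX1. Over all tested genes, 3241, 2253 and 2375 passed in these runs, in that order, beside 3447 with all libraries. In the MiT/TFE family, the relatives of MITF that control lysosome genes, TFEB rose by 0.40 on the log2 scale, from 0.99 to 1.30 FPKM, and TFE3 had a log2 fold change of 0.02 (adjusted p = 0.801).

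Among visual cycle and retinoid genes, 3 of 11 tested genes rose and 1 fell. Beside RLBP1, the retinol dehydrogenase gene RDH10 rose from 21.6 ± 3.27 to 28.3 ± 1.67 FPKM (log2 fold change 0.41) and the retinal reductase gene DHRS3 rose from 31.9 ± 3.03 to 37.6 ± 1.73 FPKM (0.26). RDH14, another retinol dehydrogenase gene, fell from 24.4 ± 0.926 to 20.4 ± 1.82 FPKM (-0.24). RGR, TTR, RBP3 and RDH8 had no row, like RPE65. LRAT, which esterifies retinol for RPE65, held between 21 and 38 counts per library (log2 fold change -0.40, adjusted p = 0.333). The retinol dehydrogenase genes spanned a wide range, from RDH10 and RDH14 above to RDH13 at 0.827 and 0.803 FPKM, RDH5 at 0.38 and 0.483 and RDH12 at 0.03 and 0.0233 in NC and siEIF1, of which RDH13 and RDH5 were tested and did not pass.

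In the melanosome list, 4 of 25 tested genes rose and 2 fell, a share near the background. BLOC1S4, a subunit of the BLOC-1 complex that sorts cargo to melanosomes and other lysosome-related organelles, fell from 11.4 ± 0.425 to 5.42 ± 0.722 FPKM (log2 fold change -1.05, adjusted p = 5.45e-06 from edgeR). MYO7A, a myosin of melanosome and phagosome transport, rose from 0.503 ± 0.0924 to 0.96 ± 0.144 FPKM (0.96). BLOC1S6 (0.31), HPS1 (0.26) and HPS4 (0.24) rose, and RAB27A (-0.22) fell. The melanin enzyme genes TYR and DCT and the melanosome gene MLANA, named after their values were seen, held from 0 to 4 counts in every library. Other pigment genes of the list were higher: GPNMB was at 59.9 and 60.2 FPKM in NC and siEIF1, GPR143 at 22.9 and 24.3, SLC45A2 at 0.37 and 0.363 and SLC24A5 at 0.297 and 0.21, and these 4 were tested and did not pass.

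In the phagocytosis list, 5 of 13 tested genes rose and the other 8 did not pass the test. GAS6, a bridging ligand of MERTK, rose from 17.9 ± 0.235 to 24.7 ± 0.785 FPKM (log2 fold change 0.48). The outer segment binding integrin genes ITGB5 (0.36) and ITGAV (0.20), the small GTPase gene RAC1 (0.32) and the galectin gene LGALS3 (0.34) rose as well. Of the receptors related to MERTK, AXL stood at 158 FPKM in NC and 154 FPKM in siEIF1 (log2 fold change -0.02, adjusted p = 0.854). AXL was thus far above MERTK per length in these cells.

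Among channels and transporters, 2 of 15 tested genes rose and 1 fell, a share near the background. BSG, the chaperone of lactate transporters, rose from 238 ± 2.04 to 264 ± 3.49 FPKM (0.17), SLC4A4, a bicarbonate cotransporter gene, rose (0.27), and SLC16A1, a lactate transporter gene, fell (-0.16). Without NC replicate 1, or without siEIF1 replicate 2, 0 genes of this list passed (at an unadjusted p under 0.05 in edgeR, 2 higher and 1 lower in the first case and 3 higher and 2 lower in the other), and without NC replicate 2, or without NC replicate 3, 1 gene passed. Without siEIF1 replicate 1, 2 genes passed, both lower. Over all tested genes, 3447 passed with all libraries and 3241 without siEIF1 replicate 1. Without NC replicate 1, 2 or 3, or without siEIF1 replicate 2, from 2253 to 2701 of all tested genes passed. Among secreted and matrix proteins, 3 of 13 tested genes rose and 2 fell. FGF2 fell from 124 ± 2.6 to 87.9 ± 6.07 FPKM (-0.48) and VEGFA, an angiogenic factor secreted by the RPE, fell from 13.5 ± 0.71 to 10.2 ± 0.656 FPKM (-0.39). The chaperone gene CLU (0.44), the lysophospholipase gene ENPP2 (0.41) and the matrix gene EFEMP1 (0.26) rose.

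In the list of simple epithelial keratins and junction genes, 7 of 16 tested genes rose and the other 9 did not pass the test, with a median log2 fold change of 0.23. Beside KRT18 and KRT8, the desmosome and adherens junction gene JUP rose from 3.98 ± 0.47 to 5.83 ± 0.102 FPKM (0.57), the apical polarity gene CRB2 rose from 4.78 ± 0.779 to 7.58 ± 0.92 FPKM (0.68), and DSP (0.30), PARD3 (0.21) and KRT7 (0.22) rose. CDH1, the classical epithelial cadherin gene, held between 0 and 5 counts per library. Fibroblast and mesenchymal markers moved beside this group: of 14 listed genes 8 were tested, 4 rose and 1 fell, with a summed level of 848 to 873 FPKM in NC and 1029 to 1091 FPKM in siEIF1 libraries. Their median log2 fold change over the tested genes was 0.31, and 6 of the 14 reached 1 FPKM in every library. VIM (0.30) carried most of the sum, at 829 ± 13.7 and 1006 ± 37.2 FPKM, ACTA2 (0.66), PDGFRB (0.60) and FN1 (0.23) also rose, and TAGLN (-0.39) fell. The 6 untested genes, COL1A2, COL3A1, PDGFRA, THY1, LUM and DCN, held from 0 to 5 counts in every library. The part of these markers in the keratin and junction differences was not tested.

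Of the other cell types read, 7 of 12 photoreceptor genes were listed, and their summed level ranged from 5.55 to 6.41 FPKM in NC and from 6.53 to 7.68 FPKM in siEIF1 libraries. PDE6B (log2 fold change 0.27, adjusted p = 0.0521 from edgeR) and ROM1 (0.26, adjusted p = 0.08) held most of it. Melanocyte and neural crest genes summed to at most 0.1 FPKM in any library, endothelial genes to at most 0.31 and blood cell genes to at most 1.01. Stratified keratinocyte genes summed to between 14.5 and 16.8 FPKM in NC and between 11.9 and 13.9 in siEIF1, nearly all of it KRT10, which fell by 0.25 on the log2 scale.

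For the 2 members with the smallest p, the genes with the most similar pattern over the 6 libraries were found by the root-mean-square difference of centred log2 CPM among 12027 genes with a mean of at least 100 counts. For RLBP1 these were SLC37A2 (0.225), PADI1 (0.242) and TPM4 (0.253), which had log2 fold changes of 1.14, 1.12 and 1.17. For KRT18 they were RBMX (0.0096), PPP1CC (0.011) and EIF3G (0.0162), with log2 fold changes from 0.23 to 0.25. The distances for RLBP1 were far larger than those for KRT18, and the 3 genes named for RLBP1 rose less than RLBP1 itself (1.55). They were thus the nearest genes but not close matches. A small distance describes only that the values moved alike in these 6 libraries.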

How the data were processed

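ARPE-19 libraries (3 NC, 3 siEIF1) were polyA-selected and strand-specific. According to the methods and the submitters' processing notes, the authors trimmed reads with FASTX-Toolkit 0.0.13, aligned them to GRCh38 with HISAT2 and kept uniquely mapped reads. The counter, its strand setting and the annotation release are not given in the sources used here. The authors deposited raw counts per gene and FPKM values, which leave out 343 genes. The methods describe the 3 replicates as independent.

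Counts were filtered with filterByExpr, scaled by TMM and tested with edgeR 4.0.16 in R 4.3.3 (quasi-likelihood F test, Benjamini-Hochberg adjustment over 16749 genes). Standard errors come from the F statistic and 95% intervals from its t distribution. FPKM values were used for levels, and, as log2(FPKM + 1) or log2(FPKM + 0.1), with limma 3.58.1. DESeq2 1.42.0, glmTreat against a fold of 1.2, other scalings and filters, a replicate block and leaving out each library were alternatives. The scripts were tested on simulated counts. Positions and overlaps came from GENCODE release 44.

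The members and lists were chosen with earlier results of these data known. Named are the members, EIF1, up to 5 passing genes per role list, genes overlapping a member or copied from it, and the genes of most similar pattern. Other named genes were chosen after their values were seen. The replicates measure the spread between these cultures. A withheld item is not reported here.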

Additional observations from a re-analysis of the deposited data

How the results depend on the processing

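RLBP1 and KRT18 passed the adjusted p of 0.05 in all 14 alternatives that test for any difference, RLBP1 with log2 fold changes from 0.44 to 1.65 and KRT18 from 0.23 to 0.28. The lowest RLBP1 value came from limma on log2(FPKM + 1), a scale that compresses low genes, and there 0 members passed both limits. Against a fold of 1.2 (edgeR's glmTreat), RLBP1 passed and KRT18 did not, 758 genes passed in place of 3447, and the passing genes fell from 7 to 2 in the keratin and junction list, from 5 to 1 in the phagocytosis list and from 5 to 1 in the transcription factor list. With the replicate numbers as a block, 4 members passed, since BEST1 (-0.35, adjusted p = 9.37e-04 from edgeR) and RDH11 (-0.16, adjusted p = 0.0425) were added, PMEL was at 0.0054, and 4273 genes passed. Same-numbered libraries correlated at 0.149, 0.0946 and 0.128 in their deviations from the group means; the labels give the numbers no shared batch, so they were not treated as pairs, although each library correlated best with its own number. With no filter on low counts, BEST1 passed at -0.33 (adjusted p = 1.75e-07 from edgeR). The cause of these shifts was not tested. At an FPKM of at least 0.1 in every library, 8 members counted as detected in place of 5. Of all genes with FPKM values, 54.0% reached that level, in place of 35.8% at 1 FPKM.

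With each library left out in turn, 2 to 3 members passed. Over all tested genes, from 2253 to 3474 passed in these runs, beside 3447 with all libraries. The log2 fold change ranged from -0.47 to -0.14 for BEST1, from -0.23 to -0.10 for RDH11 and from -0.18 to 0.14 for PMEL, whose sign has no meaning at this depth. The role genes that passed numbered from 25 to 38, beside 34 with all libraries. The 25 came without siEIF1 replicate 2, where the fewest of all tested genes passed (2253). The 38 came without siEIF1 replicate 3, where the most passed (3474). Depth limits MERTK, PMEL, RLBP1 and TYRP1, which held at most 68 counts in a library.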

Other observations

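The nearest listed protein-coding genes on either side of RLBP1 differed from it. ABHD2, a lipid hydrolase gene on the forward strand that ends 7514 bases from RLBP1, held 1354, 1349 and 1381 counts in the NC libraries and 1342, 1426 and 1607 counts in the siEIF1 libraries (log2 fold change -0.01, SE 0.073, adjusted p = 0.935 from edgeR). FANCI, a Fanconi anemia DNA repair gene that starts 22331 bases away on the other side, held 656, 630 and 622 counts in NC and 340, 268 and 285 counts in siEIF1 libraries and fell (log2 fold change -1.21, SE 0.085, adjusted p = 9.23e-07 from edgeR).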
